A study of Homo sapiens with 12 samples.

Results

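The FGF, PDGF and KIT receptors with their ligands were examined as 10 genes, chosen by name: FGFR1, FGFR3, FGFR4 and the ligand FGF2, PDGFRA, PDGFRB and the ligands PDGFA and PDGFC, and KIT with its ligand KITLG. All 10 were among the 23273 genes listed for each of 2 melanoma cell lines, COLO858 and MMACSF, both bearing a mutant BRAF kinase. Each line was cultured with the solvent DMSO, or for 24 h or 48 h with 0.2 μM vemurafenib, an inhibitor of mutant BRAF, and each of the 6 groups has 2 replicate libraries. Each line stands for a single tumor, so differences between COLO858 and MMACSF are differences between 2 lines. The labels give no culture time for the DMSO cells, so the 24 h and 48 h values of a line were set against the same pair of DMSO libraries and the 2 comparisons are not independent. The study followed RNA in COLO858 to find genes that accompany adaptation to the drug, with MMACSF as the contrasting line.

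Receptor tyrosine kinases of these families sit in the plasma membrane, and binding of a ligand joins receptors into dimers that phosphorylate each other and switch on the RAS–RAF–MEK–ERK and PI3K pathways. FGF ligands need heparan sulfate to bind FGF receptors, PDGF ligands act as dimers on PDGFRA and PDGFRB, and KITLG (stem cell factor) is the ligand of KIT, which melanocyte precursors need to survive and migrate. ERK activity in turn induces inhibitors such as the Sprouty proteins and the dual-specificity phosphatases, and renewed receptor signaling is a known route by which melanoma cells tolerate RAF inhibitors.

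Values are FPKM, that is, fragments per kilobase of transcript relative to all mapped fragments, which allow levels of different genes to be compared per length. Changes are differences of log2(FPKM + 1) from limma, and a gene was called changed where its two-sided p, adjusted by Benjamini-Hochberg over all genes tested, was under 0.01. Genes were tested if the mean of any group in the fit reached 1 FPKM. The added constant makes the changes of genes near or below 1 FPKM smaller than the ratio of their levels. Of the 10 genes, 7 passed the minimum in COLO858 and 3 (FGFR1, PDGFA and KITLG) in MMACSF. A gene can pass through the group where it is high, so these counts are not evidence of change. The tables of the lines may have been scaled apart, and only changes, not levels, were tested between lines. Nothing in the labels says that the replicate plates were prepared on separate days, so the p-values measure the spread between these libraries.

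The libraries listed 11679 to 11972 genes at or above 1 FPKM. The small RNA gene MIR4461 made up 14.1% to 19.0% of the FPKM sum in the replicate 1 libraries of both lines. In the replicate 2 libraries it made up 25.8% to 43.4%. Leaving small RNA genes out of the fit kept the FPKM of all other genes as they were. That alternative therefore cannot show the part of MIR4461 in the values below. Another alternative rescaled the libraries by their median ratio, and the part of MIR4461 as such was not tested. The melanocyte markers fixed for checking the lines were present: 8 of 8 reached 1 FPKM in MMACSF and 7 of 8 in COLO858, where MLANA stayed under 1 FPKM in all 6 libraries. Their summed level in COLO858 was 702 to 717 FPKM with DMSO, 3922 to 4158 at 24 h and 4144 to 4149 at 48 h. In MMACSF it was 11160 to 11373, 15589 to 16776 and 16831 to 17555 FPKM. The largest part in COLO858 was DCT, with group means of 267, 2915 and 2150 FPKM. Those of MITF were 67.7 FPKM with DMSO, 109 at 24 h and 67.3 at 48 h. Of the 7 markers tested in COLO858, 4 were called higher and 0 lower at each time (57.1%, beside 9.82% and 9.47% of all genes). In these bulk libraries fewer cells that express a gene and less RNA per cell cannot be told apart.

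The promoters of 3 of the genes are shown because the results turn on them: KITLG, which rose in COLO858, KIT, its receptor, and FGFR4, which fell and has 2 annotated starts far apart. The 250 bases before each start, 5′ to 3′ on the strand of the gene, are from RefSeq (GRCh38.p14). They span chr12:88580472-88580721 on the minus strand for KITLG, and on the plus strand chr4:54657707-54657956 for KIT, chr5:177086665-177086914 for FGFR4 start 1 and chr5:177089300-177089549 for FGFR4 start 2. Capitals mark the letters of any of 6 motifs searched on both strands.
KITLG: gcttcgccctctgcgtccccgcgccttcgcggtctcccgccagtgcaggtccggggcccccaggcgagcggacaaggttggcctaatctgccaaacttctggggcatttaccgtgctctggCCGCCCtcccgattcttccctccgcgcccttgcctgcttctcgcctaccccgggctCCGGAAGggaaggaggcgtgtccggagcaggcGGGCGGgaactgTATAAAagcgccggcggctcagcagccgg
KIT: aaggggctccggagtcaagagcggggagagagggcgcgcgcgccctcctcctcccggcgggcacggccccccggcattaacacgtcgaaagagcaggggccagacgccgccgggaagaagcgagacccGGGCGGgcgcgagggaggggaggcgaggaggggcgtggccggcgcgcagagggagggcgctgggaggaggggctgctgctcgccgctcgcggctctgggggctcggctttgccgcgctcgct
FGFR4 start 1: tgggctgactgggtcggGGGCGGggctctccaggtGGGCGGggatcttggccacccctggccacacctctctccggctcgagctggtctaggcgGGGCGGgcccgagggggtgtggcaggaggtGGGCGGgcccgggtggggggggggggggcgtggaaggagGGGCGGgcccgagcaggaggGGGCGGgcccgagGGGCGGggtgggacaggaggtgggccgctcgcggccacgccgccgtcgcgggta
FGFR4 start 2: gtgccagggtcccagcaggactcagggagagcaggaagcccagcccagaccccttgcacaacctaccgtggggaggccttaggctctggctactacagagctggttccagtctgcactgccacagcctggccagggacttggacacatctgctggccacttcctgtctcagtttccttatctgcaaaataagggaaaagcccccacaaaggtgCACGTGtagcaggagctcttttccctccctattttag

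The motifs were the AP-1 site TGANTCA, the E-box CATGTG, the palindromic E-box CACGTG, the GC box GGGCGG, the TATA box TATAAA and the ETS core CCGGAAG. The KITLG window held a TATA box beginning 29 bases before the start, an ETS core at 73 bases and a GC box at 41 and at 129 bases. The KIT window held 1 GC box, at 122 bases. FGFR4 start 1 held 7 GC boxes and none of the other motifs, while FGFR4 start 2 held a palindromic E-box at 37 bases and no GC box. Among 35116 promoters of the same length, the GC box was present in 42.6%, the TATA box in 10.7% and the E-box CATGTG in 9.42%. The ETS core was present in 8.52%, the AP-1 site in 6.57% and the palindromic E-box in 6.34%. GC content was 69.2% for KITLG, 76.4% for KIT, 79.6% for FGFR4 start 1 and 57.2% for FGFR4 start 2, against a median of 58% over all promoters. These are matches of letters, and which FGFR4 start was used cannot be read from gene-level FPKM. Promoters were listed for 8 of the 10 genes.

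In DMSO-treated COLO858 cells the most abundant of the 10 transcripts were PDGFA at 17.5 ± 3.40 FPKM, FGFR4 at 14.2 ± 1.97 and FGFR1 at 12.9 ± 0.850 (mean ± SD, n = 2). Neighbors in this order overlapped between replicates. PDGFC followed at 4.11 ± 0.586 FPKM, and the other 6 genes lay between 0.214 (KIT) and 1.24 FPKM (KITLG). In DMSO-treated MMACSF cells FGFR1 led at 6.50 ± 0.623 FPKM, ahead of PDGFA at 3.15 ± 1.44 and KITLG at 2.52 ± 1.06, and the replicates of PDGFA and KITLG overlapped. The other 7 genes stayed under 1 FPKM as group means in MMACSF in every group. KIT was listed at 0 in all 6 libraries of that line. By 48 h in drug the order of group means in COLO858 had become PDGFC, FGFR1, PDGFA and KITLG. PDGFC stood at 11.9 ± 3.23 and KITLG at 6.93 ± 1.82 FPKM. The replicates of PDGFC and FGFR1 overlapped, as did those of PDGFA and KITLG. In MMACSF the order of means FGFR1, PDGFA, KITLG held at both drug times, and the replicates of PDGFA and KITLG overlapped at 24 h.

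**Figure D1:**
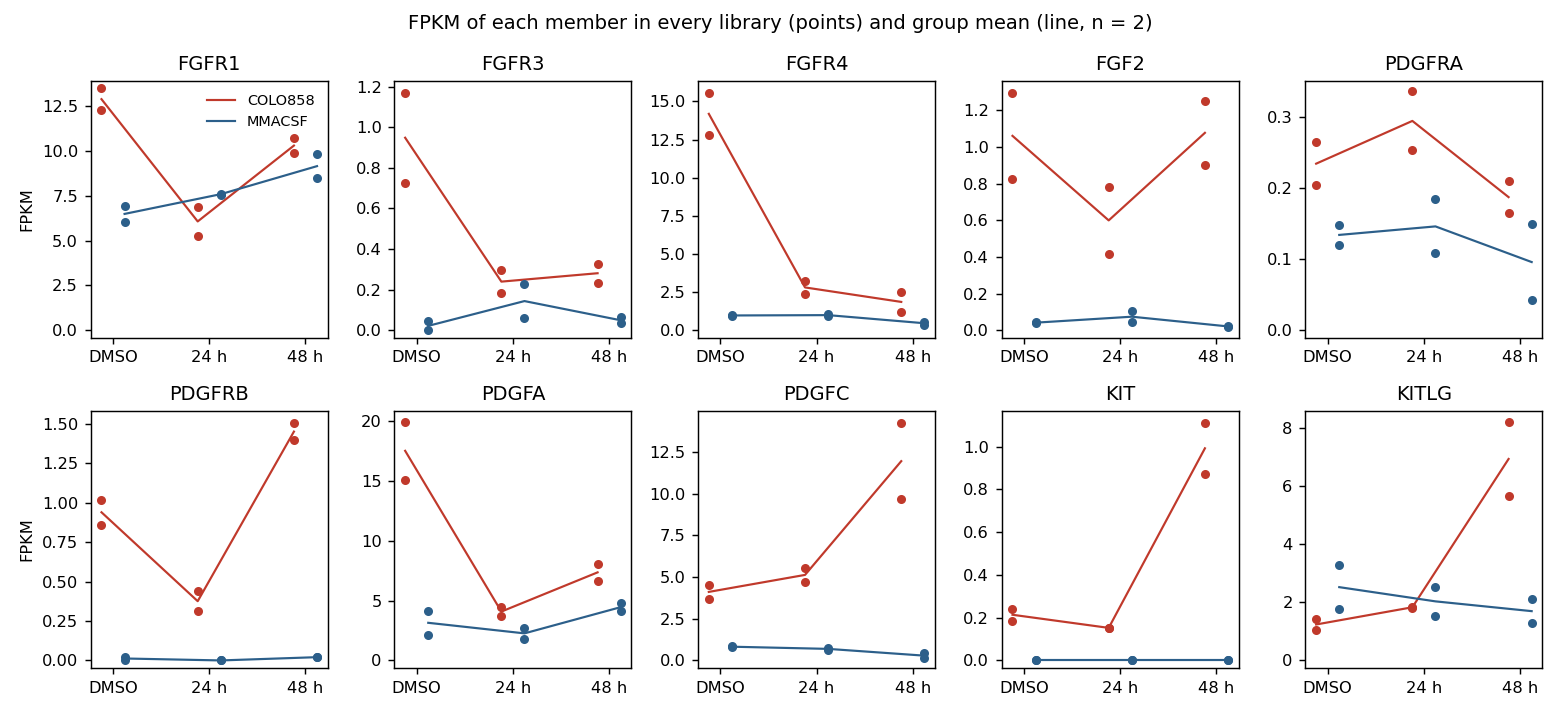
FPKM of the 10 genes in each library (points; lines join the group means, n = 2) for COLO858 (red) and MMACSF (blue) with DMSO and after 24 h and 48 h in vemurafenib, each panel with its own linear axis. FGFR4 and PDGFA are highest with DMSO in COLO858, PDGFC, KIT and KITLG are highest there at 48 h, and KIT lies at 0 in all 6 MMACSF libraries.

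Against DMSO, 2 of the 7 genes tested in COLO858 were called at 24 h, both lower (FGFR4 and PDGFA), and 2 at 48 h, FGFR4 lower and KITLG higher. Of all genes tested, 9.82% were called at 24 h and 9.47% at 48 h. The median log2 change of the 7 genes was −0.50 at 24 h and 0.02 at 48 h, beside 0.06 and −0.01 over all genes tested. None of the 7 was called between 24 h and 48 h by limma (5 at an unadjusted p under 0.05). That fit had no term for the replicate number, and 1.38% of all genes were called in it. Counts with such a term are given at the end. The median of the 7 genes from 24 h to 48 h was 0.72, beside −0.07 over all genes. In MMACSF 0 of the 3 genes tested were called at 24 h, at 48 h or between these times (0, 1 and 1 at an unadjusted p under 0.05), while limma called 5.83%, 8.83% and 0.222% of all genes. The median change of these 3 genes was −0.20 at 24 h and 0.44 at 48 h, and over all genes 0.07 and 0.06.

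**Figure D2:**
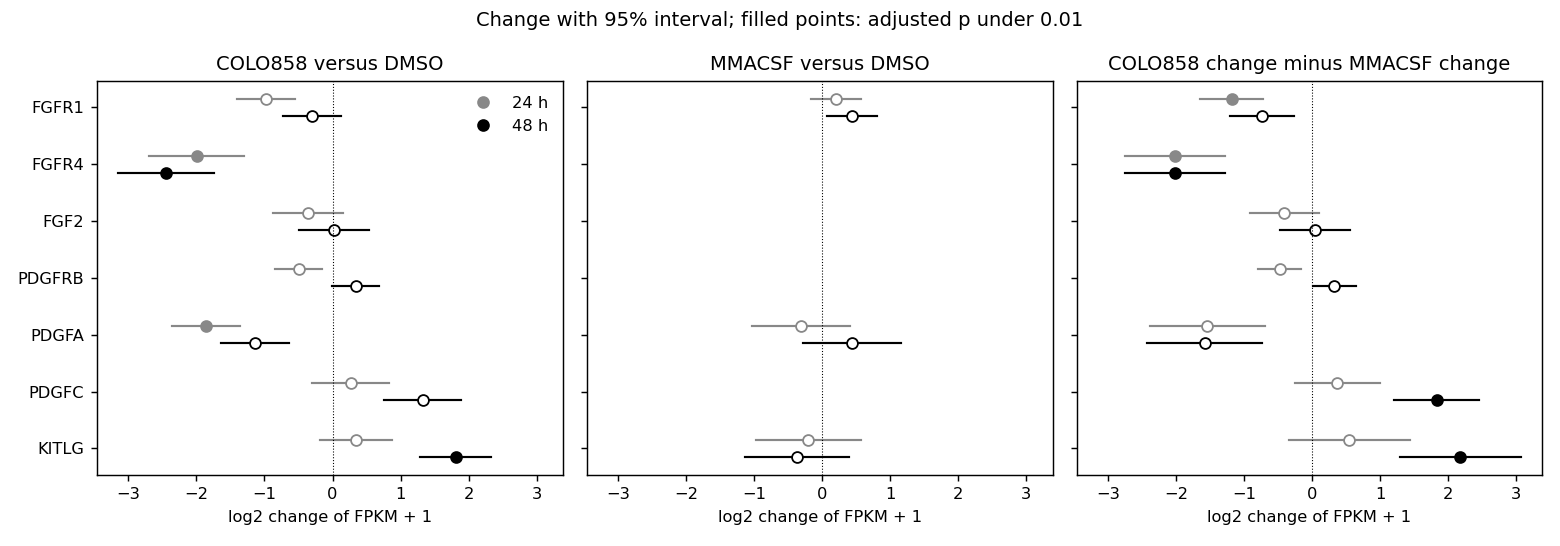
Change in log2(FPKM + 1) with its 95% interval for the genes tested, at 24 h (grey) and 48 h (black), in COLO858, in MMACSF, and as the COLO858 change minus the MMACSF change; filled points passed an adjusted p of 0.01. FGFR4 lies near −2 or below in COLO858 at both times, KITLG at 48 h lies at 1.81, and none of the MMACSF points is filled.

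FGFR4 (chr5:176513906-176525145, hg19) encodes an FGF receptor known for its response to endocrine FGFs in liver. It stood at 15.6 and 12.8 FPKM in the DMSO libraries of COLO858, at 3.21 and 2.41 FPKM at 24 h and at 2.54 and 1.18 FPKM at 48 h. Both DMSO libraries were above all 4 drug libraries, and the 2 drug times overlapped. The log2 change was −1.998 at 24 h (SE 0.28, limma adjusted p = 0.00762) and −2.45 at 48 h (SE 0.28, adjusted p = 0.00474). As a ratio of mean levels, FGFR4 was 5.06-fold lower at 24 h and 7.64-fold lower at 48 h. In MMACSF it was 0.933 and 1.00 FPKM with DMSO, 0.920 and 1.06 at 24 h, and 0.549 and 0.369 at 48 h, so that both 48 h libraries lay below the other 4. Its MMACSF group means, at most 0.991 FPKM, fell short of the minimum for a test in that line alone.

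FGFR1 (chr8:38257733-38326352), an FGF receptor widely expressed in mesenchymal tissues, was 12.3 and 13.5 FPKM with DMSO in COLO858, 5.28 and 6.87 at 24 h and 9.90 and 10.7 at 48 h. The 3 groups did not overlap, and the 24 h libraries were lowest. The changes from DMSO were −0.98 at 24 h (SE 0.17, limma adjusted p = 0.0140) and −0.30 at 48 h (adjusted p = 0.257), neither past the threshold. In MMACSF FGFR1 was 6.06 and 6.94 FPKM with DMSO, 7.57 and 7.63 at 24 h and 8.48 and 9.85 at 48 h. These groups did not overlap either, and they lay in the opposite order at 24 h to that of COLO858. The MMACSF changes were 0.20 (limma adjusted p = 0.374) and 0.44 (adjusted p = 0.0835).

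FGFR3 (chr4:1795020-1810599), an FGF receptor best known for restraining the growth of cartilage, whose group means were all below 1 FPKM and which was therefore not tested, was 1.17 and 0.727 FPKM with DMSO in COLO858. It was 0.296 and 0.183 FPKM at 24 h and 0.235 and 0.327 at 48 h, with both DMSO libraries above the drug libraries. In MMACSF it ranged from 0 to 0.226 FPKM. FGF2 (chr4:123747837-123819391), a basic FGF stored in the matrix and a growth factor for cultured melanocytes, was 0.825 and 1.30 FPKM with DMSO, 0.417 and 0.782 at 24 h and 0.902 and 1.25 at 48 h in COLO858. The 48 h libraries lay within the range of DMSO and the 24 h libraries below it, and the changes were −0.37 (95% interval −0.88 to 0.15) and 0.02 (−0.50 to 0.53). In MMACSF FGF2 ranged from 0.0182 to 0.105 FPKM.

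The summed level of FGFR1 to FGFR4 in COLO858 was 27.3 to 29.2 FPKM with DMSO, 8.91 to 9.50 at 24 h and 12.4 to 12.8 at 48 h. FGFR4 made up 47.0% to 53.3% of that sum with DMSO, 25.3% to 36.0% at 24 h and 9.52% to 19.8% at 48 h. FGFR1 made up 42.1% to 49.6% with DMSO, 59.3% to 72.3% at 24 h and 77.4% to 86.5% at 48 h, although its level was below that with DMSO at both times. In MMACSF the share of FGFR1 was 82.8% to 93.7% over the 6 libraries. FGFR2 was at most 0.423 FPKM in any library. These shares are descriptions of the same libraries and were not tested.

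PDGFA (chr7:536895-559933), which encodes a PDGF chain that binds PDGFRA, was 20.0 and 15.1 FPKM with DMSO in COLO858, 4.47 and 3.71 at 24 h and 8.07 and 6.67 at 48 h. The 3 groups did not overlap, with the lowest values at 24 h. The change was −1.86 at 24 h (SE 0.20, limma adjusted p = 0.00369), a 4.29-fold lower mean level. At 48 h it was −1.14 (SE 0.20, adjusted p = 0.0144), which missed the threshold. In MMACSF PDGFA was 4.17 and 2.13 FPKM with DMSO, 2.72 and 1.81 at 24 h and 4.82 and 4.10 at 48 h. The DMSO libraries of MMACSF were far apart and overlapped with the 24 h and the 48 h libraries.

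PDGFC (chr4:157681606-157892951), a PDGF chain that is secreted in a latent form and cut outside the cell before it binds its receptors, took another course. In COLO858 it was 3.69 and 4.52 FPKM with DMSO, 4.72 and 5.53 at 24 h and 9.65 and 14.2 at 48 h, with no overlap between groups. The change was 0.26 at 24 h (95% interval −0.30 to 0.83) and 1.32 at 48 h (SE 0.22, limma adjusted p = 0.0134), short of the threshold. In MMACSF PDGFC was 0.788 and 0.857 FPKM with DMSO, 0.647 and 0.737 at 24 h and 0.147 and 0.426 at 48 h, so the 48 h libraries were highest in COLO858 and lowest in MMACSF.

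Among the PDGF ligands of COLO858, PDGFA made up 62.3% to 74.3% of the summed PDGFA to PDGFD level with DMSO, 23.8% to 32.9% at 24 h and 26.0% to 36.7% at 48 h. The share of PDGFC was 13.7% to 18.6%, 34.8% to 35.5% and 43.8% to 55.3%. The sum itself was 24.3 to 26.8 FPKM with DMSO, 13.6 to 15.6 at 24 h and 22.0 to 25.7 at 48 h. In MMACSF PDGFD, the chain that binds PDGFRB, made up 66.3% to 81.2% in all 6 libraries.

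**Figure D3:**
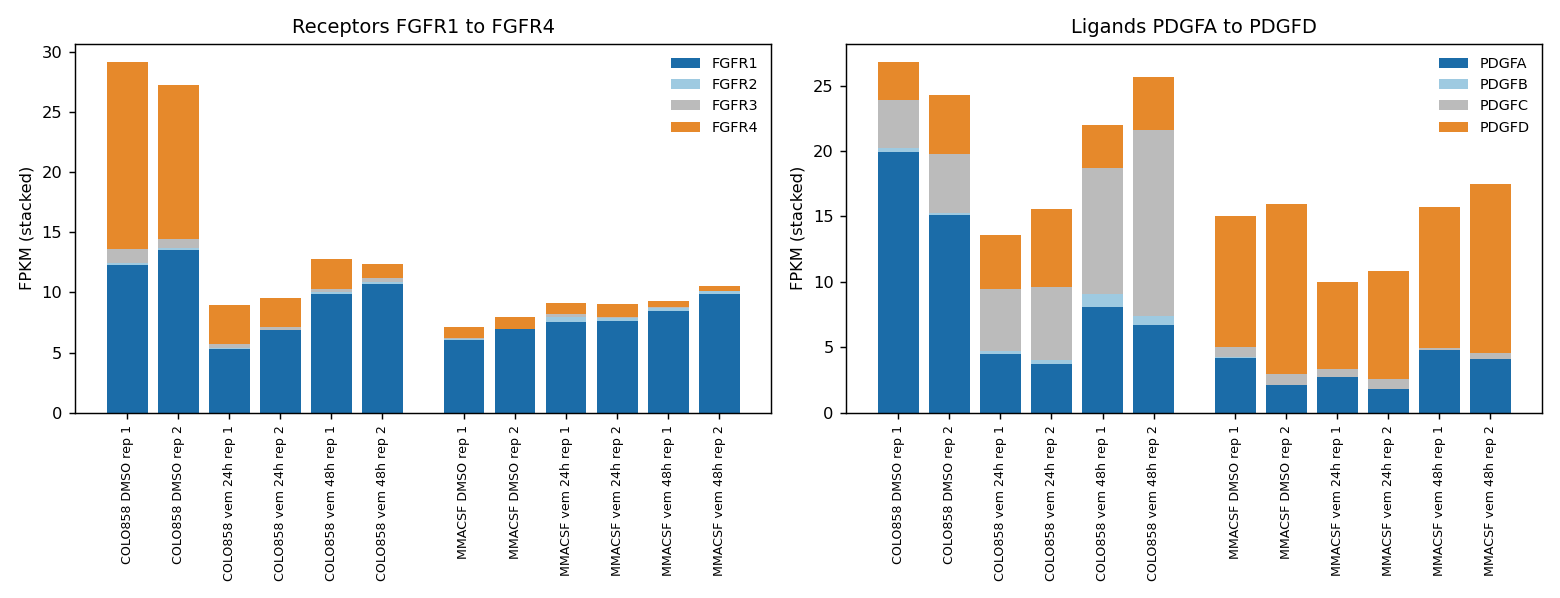
Stacked FPKM of FGFR1 to FGFR4 (left) and PDGFA to PDGFD (right) in each of the 12 libraries, on axes from 0. In COLO858 the FGFR4 part shrinks from 47.0% to 53.3% with DMSO to 9.52% to 19.8% at 48 h and the PDGFC part grows to 43.8% to 55.3%, while FGFR1 and PDGFD make up most of the MMACSF bars.

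The PDGF receptors themselves were expressed at low levels. PDGFRB (chr5:149493402-149535435), the PDGF receptor of pericytes and other mesenchymal cells, was 1.02 and 0.860 FPKM with DMSO in COLO858, 0.440 and 0.311 at 24 h and 1.50 and 1.40 at 48 h. The groups did not overlap, and the 48 h libraries were highest. Its changes were −0.50 at 24 h (SE 0.14, limma adjusted p = 0.0518), 0.34 at 48 h (adjusted p = 0.134) and 0.83 from 24 h to 48 h (SE 0.14, adjusted p = 0.0323), none past the threshold. PDGFRB passed the minimum only through the 48 h group of COLO858, where it was highest. In MMACSF PDGFRB was between 0 and 0.0247 FPKM. PDGFRA (chr4:55095447-55164412), the receptor that binds PDGFA, stayed between 0.165 and 0.336 FPKM in COLO858 and between 0.0419 and 0.184 FPKM in MMACSF and was not tested.

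KITLG (chr12:88886570-88974628) was 1.05 and 1.43 FPKM with DMSO in COLO858, 1.81 and 1.85 at 24 h and 5.65 and 8.21 at 48 h. The groups did not overlap, and both 48 h libraries were far above the other 4. KITLG rose at 48 h by a log2 change of 1.81 (SE 0.21, limma adjusted p = 0.00476), a 5.60-fold higher mean level. The change at 24 h was 0.34 (95% interval −0.18 to 0.87), and that from 24 h to 48 h was 1.47 (SE 0.21, adjusted p = 0.0226). In MMACSF KITLG was 1.77 and 3.27 FPKM with DMSO, 1.52 and 2.54 at 24 h and 1.29 and 2.10 at 48 h, with overlap between all groups, and its change at 48 h was −0.37 (95% interval −1.13 to 0.40).

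KIT (chr4:55523434-55606949) was 0.185 and 0.243 FPKM with DMSO in COLO858, 0.154 and 0.151 at 24 h and 0.875 and 1.11 at 48 h. Both 48 h libraries were above the other 4, and the mean level was 4.65-fold that with DMSO, but the group mean of 0.993 FPKM lay just under the minimum for the test. When the minimum was dropped, the KIT change at 48 h was 0.71 (SE 0.07, limma adjusted p = 0.0162), not past the threshold. The markers of mast cells and leukocytes, blood cells of which mast cells depend on KIT, gave these values beside it: of 8 genes only CD68 reached 1 FPKM, and CD3E, MS4A1, TPSAB1 and CPA3 were listed at 0 in all 6 COLO858 libraries. The summed level of the list there was 11.97 to 14.5 FPKM with DMSO, 6.52 to 8.52 at 24 h and 3.97 to 5.28 at 48 h, most of it CD68. MS4A2, a subunit of the IgE receptor of mast cells, was 0.0592 and 0.0699 FPKM with DMSO, 0.131 and 0.186 at 24 h and 0.109 and 0.178 at 48 h. The part of such cells in the KIT values was not tested.

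Fibroblasts carry PDGF receptors and FGFR1, and 8 fibroblast markers gave these values beside them. Their summed level, mostly LUM, was 8.93 to 12.1 FPKM with DMSO, 18.3 to 21.8 at 24 h and 25.2 to 35.3 at 48 h in COLO858, where 5 of 8 reached 1 FPKM. At 48 h 3 of the 5 tested in COLO858 were called (60%, beside 9.47% of all genes), COL1A1 and COL3A1 higher and COL1A2 lower. COL1A1 passed the minimum only through the 48 h group, COL3A1 only through the drug groups and COL1A2 only through DMSO. In MMACSF the sum was 57.9 to 79.3, 45.4 to 53.8 and 20.3 to 29.1 FPKM, 3 of 8 reached 1 FPKM and THY1 was listed at 0. The 6 endothelial markers all stayed under 1 FPKM in both lines, and of the 6 keratinocyte markers KRT10 alone reached 1 FPKM. The part of any fibroblast-like program in the receptor and ligand values was not tested.

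The changes of the lines were compared directly in a fit of all 12 libraries, in which 7 of the 10 genes were tested. At 24 h 2 of 7 differed between lines, where 3.71% of all genes did. The COLO858 change minus the MMACSF change was −2.01 for FGFR4 (SE 0.32, limma adjusted p = 0.00688) and −1.18 for FGFR1 (SE 0.20, adjusted p = 0.00957). At 48 h 3 of 7 differed, beside 7.48% of all genes. FGFR4 again had a difference of −2.01 (SE 0.32, adjusted p = 0.00406), while PDGFC at 1.83 (SE 0.27, adjusted p = 0.00294) and KITLG at 2.18 (SE 0.39, adjusted p = 0.00717) changed more positively in COLO858. FGFR4 and PDGFC entered this fit through COLO858 alone, since their MMACSF means lay under 1 FPKM in every group, and the added constant of 1 FPKM shrinks their MMACSF changes: the FGFR4 mean there was 2.11-fold lower at 48 h than with DMSO, against a fitted change of −0.43. With a constant of 0.1 FPKM the FGFR4 difference was no longer called at 24 h (−2.33, adjusted p = 0.0262) or at 48 h (adjusted p = 0.0287), and PDGFC was (2.85, adjusted p = 0.00681). PDGFA differed by −1.54 at 24 h (adjusted p = 0.0375) and −1.58 at 48 h (adjusted p = 0.0225), which missed the threshold. For FGF2 the difference at 48 h was 0.04 (95% interval −0.47 to 0.55). In the change from 24 h to 48 h, 0 of 7 differed by limma (3 at an unadjusted p under 0.05) and 2.96% of all genes did. This fit too had no term for the replicate number. The values nearest to the threshold were PDGFRB at 0.80 (adjusted p = 0.0112) and PDGFC at 1.46 (adjusted p = 0.0165). PDGFRB and FGF2 also entered this fit through COLO858 alone, PDGFRB only through its 48 h group. In MMACSF PDGFRB lay between 0 and 0.0247 FPKM, so its difference is almost wholly the COLO858 change. The median difference of the 7 genes was −0.48 at 24 h and 0.04 at 48 h, against −0.01 and −0.04 over all genes.

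The calls in COLO858 rest on 2 libraries per group. Leaving out any 1 of the 6 COLO858 libraries moved FGFR4 to an adjusted p of 0.0110 to 0.0575 at 24 h and 0.0143 to 0.0377 at 48 h, PDGFA at 24 h to 0.0128 to 0.0353 and KITLG at 48 h to 0.0148 to 0.0367. Their log2 changes then ranged from −2.15 to −1.85 and −2.79 to −2.10 for FGFR4, from −2.05 to −1.67 for PDGFA and from 1.58 to 2.05 for KITLG. The line difference of FGFR1 at 24 h lost its call on leaving out any 1 of the 12 libraries (adjusted p 0.0121 to 0.0413).

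Genes whose changes from DMSO were most like those of the 3 genes tested in both lines were sought over the 12 libraries among 11699 genes, by the root mean square difference of log2 changes. For FGFR1 they were FAM40B (0.11), HAUS4 (0.17) and GNAZ (0.17), and for PDGFA they were DOK1 (0.22), which encodes a docking protein of tyrosine kinases, the kinase gene PIM1 (0.26) and RAC3 (0.28). For KITLG they were VCL (0.23), the focal adhesion protein vinculin, RDH10 (0.24), a retinol dehydrogenase, and PALLD (0.25), an actin-binding protein. VCL, RDH10 and PALLD were 1.50, 1.43 and 1.96 log2 units above DMSO at 48 h in COLO858, and at −0.25, −0.27 and −0.22 relative to it in MMACSF.

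Of the 33 other genes of the FGF, PDGF and KIT families, 6 were tested in COLO858 and 8 in MMACSF. In COLO858 2 were called lower at 24 h and 1 at 48 h (medians −0.25 and −0.65), and in MMACSF 1 was called higher at 24 h and 0 at 48 h by limma (4 at an unadjusted p under 0.05; medians 0.08 and 0.11). The shares called at 24 h and 48 h were 33.3% and 16.7% in COLO858, beside 9.82% and 9.47% of all genes, and 12.5% and 0% in MMACSF, beside 5.83% and 8.83%. FGFRL1, an FGF receptor without a kinase domain, was 88.8 and 72.3 FPKM with DMSO in COLO858, 12.2 and 10.1 at 24 h and 6.55 and 5.64 at 48 h. Its change was −2.74 at 24 h and −3.52 at 48 h (SE 0.18 for each, limma adjusted p = 0.00115 and 0.000601). In MMACSF FGFRL1 was 2.92 to 4.80 FPKM in all 6 libraries. FGF13, an intracellular FGF homolog that does not act on FGF receptors, fell by 2.18 at 24 h in COLO858 (SE 0.21, adjusted p = 0.00301), from 7.35 and 9.47 FPKM to 0.863 and 1.29. CSF1, the ligand of the KIT relative CSF1R, rose by 1.03 at 24 h in MMACSF (SE 0.13, adjusted p = 0.00755), from 5.60 and 6.04 FPKM to 13.5 and 12.3. In COLO858 CSF1 was 4.58 and 3.77 FPKM with DMSO, 4.98 and 4.66 at 24 h and 9.93 and 7.50 at 48 h, without a call.

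Of 21 genes that handle FGFs or build heparan sulfate, 19 were tested in COLO858, where 3 were called higher and 2 lower at 24 h, and again 3 higher with 2 lower at 48 h (medians 0.01 and 0.07). Of 17 tested in MMACSF, 1 was lower at each time (medians 0.12 and 0.07). The share called was 26.3% at each time in COLO858, where it was 9.82% and 9.47% over all genes, and 5.88% at each time in MMACSF, where it was 5.83% and 8.83%. SDC3, a heparan sulfate proteoglycan of the cell surface, was called lower in each line, with a change of −2.36 at 48 h in COLO858 (SE 0.14, limma adjusted p = 0.000941) and −2.18 at 24 h in MMACSF (SE 0.11, adjusted p = 0.000833). HSPG2 (perlecan), a proteoglycan of basement membranes, rose by 2.17 at 48 h in COLO858 (SE 0.26, adjusted p = 0.00530), from 4.10 and 2.94 FPKM to 22.5 and 16.3. In MMACSF HSPG2 changed by 1.48 at 24 h (adjusted p = 0.0184) and 1.46 at 48 h (adjusted p = 0.0159), short of the threshold.

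Among 14 genes listed as feedback inhibitors of receptor signaling, 13 were tested in COLO858 and 7 were called lower at 24 h (median −1.26). At 48 h 6 were lower and 1 higher (median −0.98). In MMACSF 6 of 12 were lower at each time (medians −0.86 and −0.81). These shares, 53.8% at each time in COLO858 and 50% in MMACSF, stand beside 9.82% and 9.47% of all genes in COLO858 and 5.83% and 8.83% in MMACSF. SPRY1, SPRY2, SPRY4, DUSP4, DUSP5 and DUSP6 were called lower at both times in both lines. SPRY4, a Sprouty protein that restrains signaling between receptor and RAF, was 271 and 277 FPKM with DMSO in COLO858 and 8.34 and 8.12 at 48 h, a change of −4.90 (SE 0.12, limma adjusted p = 0.000137). In MMACSF it was 35.1 and 36.4 FPKM with DMSO and 1.92 and 2.28 at 24 h, a change of −3.57 (SE 0.14, adjusted p = 0.000503). The gene called higher was FLRT3, a transmembrane protein known to bind FGF receptors and to promote rather than inhibit their signaling. FLRT3 was 10.0 and 14.0 FPKM with DMSO in COLO858, 30.9 and 39.9 at 24 h and 70.3 and 95.02 at 48 h, a change of 2.69 at 48 h (SE 0.25, adjusted p = 0.00274).

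Of 26 adaptors and signal relays, 25 were tested in COLO858, of which SH2B3 was lower at 24 h, and GAB1 was higher and SH2B3 lower at 48 h (medians 0.22 and −0.05). Of 24 tested in MMACSF, 1 was lower at each time (medians 0.06 and 0.15). The shares of 4% and 8% in COLO858 were under the 9.82% and 9.47% of all genes, and 4.17% at each time in MMACSF was under 5.83% and 8.83%. SH2B3, an adaptor that dampens KIT and cytokine receptor signaling, fell in each line, with a change of −3.27 at 48 h in COLO858 (SE 0.13, limma adjusted p = 0.000330) and −2.44 at 24 h in MMACSF (SE 0.13, adjusted p = 0.000899). GAB1, a docking protein for SHP2 and PI3K, rose by 1.61 at 48 h in COLO858 (SE 0.22, adjusted p = 0.00743), from 0.893 and 1.34 FPKM to 4.74 and 6.19.

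Of 45 other receptor tyrosine kinases, 18 were tested in COLO858, of which 2 were higher at 24 h, and 3 were higher and 1 was lower at 48 h (medians −0.11 and −0.25). In MMACSF 21 were tested, of which 1 was higher at 24 h, and 2 were higher and 1 was lower at 48 h (medians 0.09 and 0.22). Called at 24 h and 48 h were thus 11.1% and 22.2% in COLO858, beside 9.82% and 9.47% of all genes, and 4.76% and 14.3% in MMACSF, beside 5.83% and 8.83%. EPHB1, an ephrin receptor, rose by 2.09 at 48 h in COLO858 (SE 0.13, limma adjusted p = 0.00110), from 0.0803 and 0.108 FPKM to 3.47 and 3.85. It passed the minimum in COLO858 only through the 48 h group. In MMACSF EPHB1 was 0.579 and 0.365 FPKM with DMSO, 1.86 and 1.64 at 24 h and 1.78 and 1.79 at 48 h. AXL, the receptor of GAS6, fell by 1.16 at 48 h in COLO858 (SE 0.13, adjusted p = 0.00465), from 7.22 and 7.25 FPKM to 2.72 and 2.64. In MMACSF PTK7, a kinase-dead receptor of Wnt signaling, rose by 0.91 at 48 h (SE 0.12, adjusted p = 0.00721) and EPHA4 fell by 1.18 (SE 0.16, adjusted p = 0.00802).

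**Figure D4:**
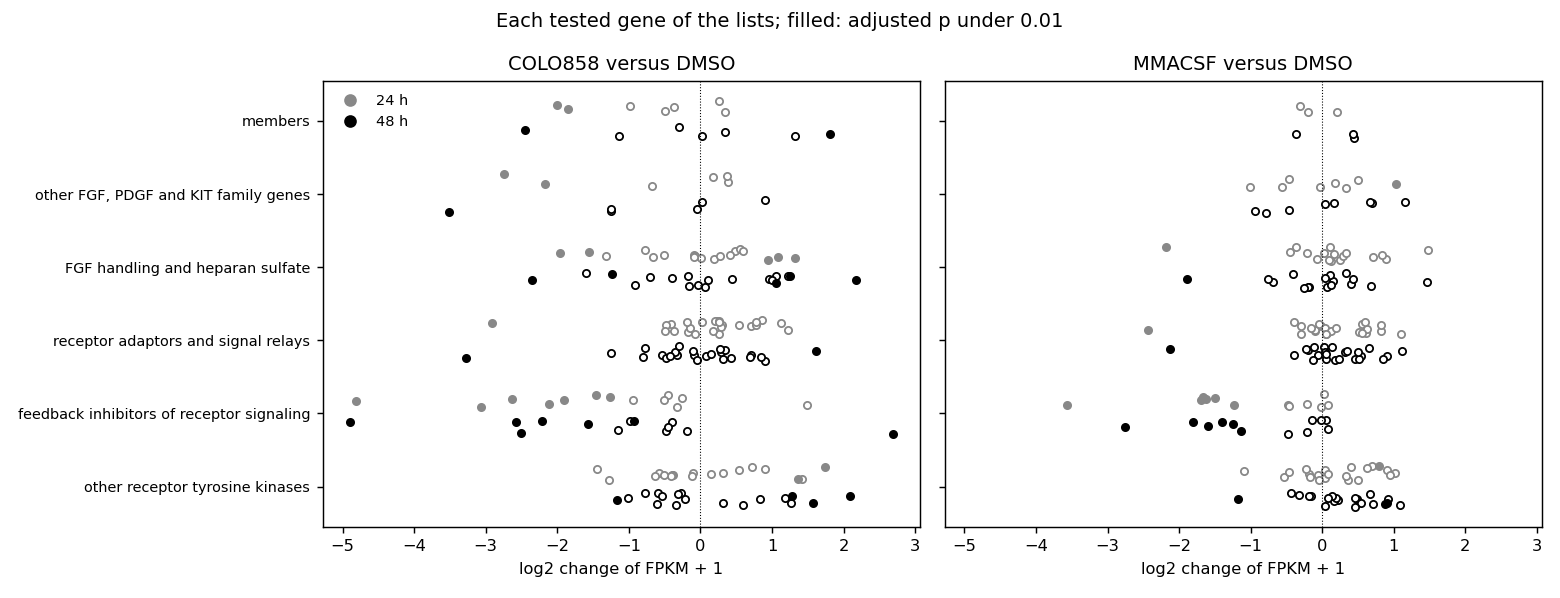
Change from DMSO in log2(FPKM + 1) of each tested gene, by list, at 24 h (grey) and 48 h (black) in COLO858 (left) and MMACSF (right); filled points passed an adjusted p of 0.01 and the vertical scatter within a row has no meaning. Feedback inhibitors lie mostly left of 0 in both lines, with FLRT3 at 2.69 in COLO858 as the exception at 48 h, and FGFRL1 at −3.52 lies far left of its list in COLO858.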

How the data were processed

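Stranded mRNA libraries were read from one end over 50 bases. The authors mapped reads to hg19 with TopHat and computed values with Cuffdiff, and they deposited 1 table of FPKM per cell line, used here through all 12 columns. Annotation, program versions, strand setting and scaling across libraries are not given in the sources used here. Read depth is unknown, so no counting error is given. Within each line, 0 pairs of libraries held identical values.

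Changes were fitted with limma 3.58.1 (R 4.3.3) on log2(FPKM + 1), with 3 groups per line or 6 groups over both lines and moderated variances with a trend. A gene was tested if the mean of any group reached 1 FPKM, two-sided, with Benjamini-Hochberg adjustment and the study's threshold of 0.01. The procedure was tested on simulated data. Groups came from the sample titles. The 10 genes, the gene lists and the marker lists were chosen with earlier results of these data known. Every one of the 10 genes is named. From each other list, the genes called against DMSO with the largest rise and fall in each line are named, and in the first list every called gene. Other list genes given within a count were chosen after their values were seen. FGFR1, PDGFA and KITLG were each matched to the 3 genes of most similar change. Coordinates are from GENCODE 44 lifted to GRCh37, in which 19490 of the 23273 symbols were found. Alternatives were an added constant of 0.1 or 10 FPKM, no minimum or a minimum of 5 FPKM, median-ratio rescaling, a replicate block, no variance trend, no small RNA genes, a threshold of 0.05, leaving out each library and a fit on only the 4 libraries compared.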

Additional observations from a re-analysis of the deposited data

Results flagged for a closer look

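The following changes differed between the lines in the fit of all 12 libraries (limma interaction, adjusted p under 0.01). Each value is the COLO858 change minus the MMACSF change in log2(FPKM + 1).

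Among the receptors and ligands, FGFR1 differed by −1.18 at 24 h (SE 0.20, adjusted p = 0.00957) and FGFR4 by −2.01 at 24 h and −2.01 at 48 h (SE 0.32 for each, adjusted p = 0.00688 and 0.00406). In the opposite direction, PDGFC differed by 1.83 (SE 0.27, adjusted p = 0.00294) and KITLG by 2.18 (SE 0.39, adjusted p = 0.00717) at 48 h. FGFR4 and PDGFC entered this fit through COLO858 alone. Their MMACSF group means were all under 1 FPKM, where the added constant shrinks their changes. Leaving out single libraries kept the call of PDGFC in 8 of 12 fits, of FGFR4 at 48 h in 6 of 12, of KITLG in 3 of 12, of FGFR4 at 24 h in 2 of 12 and of FGFR1 in 0 of 12. With a constant of 0.1 FPKM FGFR4 lost its call at both times (adjusted p = 0.0262 and 0.0287) and FGFR1 at 24 h (adjusted p = 0.0125). With no minimum FGFR4 (adjusted p = 0.0179 and 0.0120), FGFR1 (adjusted p = 0.0128) and KITLG (adjusted p = 0.0207) lost theirs.

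Among genes around them, FGFRL1 differed by −2.92 at 24 h and −3.69 at 48 h (adjusted p = 0.000704 and 0.000100), and SPRY4 by −1.25 at 24 h, −2.14 at 48 h and −0.89 in the change from 24 h to 48 h (adjusted p = 0.00164, 5.33e-05 and 0.00834). SPRY4 fell in both lines, so its difference is one of size. At 48 h SH2B3 differed by −1.15 (adjusted p = 0.000940), having fallen in both lines, and FLRT3 by 2.61 (adjusted p = 0.00209). AXL differed by −1.21 (adjusted p = 0.00154) and PTK7 by −1.13 (adjusted p = 0.00590) at 48 h. AXL entered this fit through COLO858 alone. It lay between 0.255 and 0.557 FPKM in the MMACSF libraries, where the added constant shrinks its change. EPHB1 differed by 1.17 at 48 h (adjusted p = 0.00198) and by 1.93 in the change from 24 h to 48 h (adjusted p = 0.000362). EPHB1 rose in both lines from below 1 FPKM, so its difference at 48 h is one of size. In MMACSF its rise was already present at 24 h.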

How the results depend on the processing

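No change of a called gene reversed under any alternative. The number of the 10 genes called did vary. With a constant of 0.1 FPKM it was 1 in COLO858 at 24 h (9.73% of all genes) and for the line difference 0 at 24 h (2.47%) and 2, PDGFC and KITLG, at 48 h (6.21%). With a constant of 10 FPKM it was for the line difference 3 at 24 h (4.55%), 4 at 48 h (7.85%) and 1 from 24 h to 48 h (2.62%). With no minimum it was 0 in COLO858 at 24 h (2.2%) and 0 at 48 h (2.59%), and for the line difference 0 at 24 h (2.4%), 2 (PDGFC and KIT) at 48 h (4.65%) and 2 (PDGFRB and KIT) from 24 h to 48 h (1.84%). The KIT differences there rest on MMACSF libraries listed at 0, and the PDGFRB difference on MMACSF libraries at no more than 0.0247 FPKM. With a minimum of 5 FPKM, which left 5 of the 10 genes, it was 1 in COLO858 at 48 h (9.26%) and 1 for the line difference at 24 h (3.19%). Median-ratio rescaling gave 3 in COLO858 at 24 h (12.1%) and 3 at 48 h (10.9%). For the line difference it gave 1 at 24 h (4.41%) and 1 from 24 h to 48 h (3.71%). Without small RNA genes it was 3 in COLO858 at 24 h (14.1%), 4 at 48 h (13.9%), 1 from 24 h to 48 h (2.82%) and 1 for the line difference from 24 h to 48 h (3.29%). With only the 4 libraries compared it was 0 in COLO858 at 48 h (3.95%). At an adjusted p under 0.05 it was 4 in COLO858 at 48 h, 2 from 24 h to 48 h, and for the line difference 5 at 48 h and 3 from 24 h to 48 h. At 24 h FGFR1 was added in COLO858 (limma adjusted p = 0.0140) and PDGFA for the line difference (adjusted p = 0.0375). The share of all genes under 0.05 was not computed, so these counts cannot be set against it. On leaving out 1 library it was 0 in each COLO858 and MMACSF comparison, 0 to 1 for the line difference at 24 h, 0 to 3 at 48 h and 0 to 1 from 24 h to 48 h. All genes called then fell from 1247 to 66 to 433 at 24 h and from 1202 to 111 to 351 at 48 h in COLO858. Fewer of all genes were called in every line difference as well. A library left alone in its group was assumed to vary like the other groups. In MMACSF 0 of the 10 genes were called under every alternative. Causes of these shifts were not tested.

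The groups of a line use the same replicate numbers, and no source says what they mark. Subtracting the group mean from each library, the correlation between libraries of the same number was 0.196 to 0.211 for COLO858 and 0.0628 to 0.113 for MMACSF, and without small RNA genes at 0.753 to 0.779 and 0.590 to 0.673. With the replicate number as a block 3 of the 10 genes were called in COLO858 at 24 h (FGFR1, FGFR4 and PDGFA, beside 45% of all genes, 5719), 4 at 48 h (FGFR4, PDGFA, PDGFC and KITLG, beside 43.7%, 5549) and 5 from 24 h to 48 h (FGFR1, PDGFRB, PDGFA, PDGFC and KITLG, beside 18%, 2280). For the line difference they were 3 at 24 h (beside 17.6%), 5 at 48 h (beside 25.3%) and 3 from 24 h to 48 h (beside 13%). In MMACSF all genes called became 3284 and 3790.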
